A study of Sus scrofa with 36 samples.

Results

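KIF1A, TMEM52B and S100A2 were followed in the liver of 36 pigs. They were chosen by their measured breed differences in these same arrays, as genes with a high level in Large White liver, so their breed levels are given as a description with no test. They are 3 of 10506 named genes with a detected probe. Each was read through every non-control probe assigned to it by the array files or by RefSeq's genes for the Sscrofa11.1 assembly. This gave 5 of the 60305 probes on the array, and 4 of them were well above background, the scanner software's own detection flag, on at least 6 of the 36 arrays. Those 4 probes, 1 for KIF1A, 1 for TMEM52B and 2 for S100A2, stood among 44796 probes that passed the same filter.

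Each array carried Cy3-labelled liver RNA of 1 castrated male growing pig. The pigs were Large White (LW), Creole (CR) or their cross, called F1 in the labels, and came from thermoneutrality (TN, labelled 24 °C) or from heat stress (HS), with 6 pigs in each of 6 groups: LW TN, LW HS, CR TN, CR HS, F1 TN and F1 HS. The labels put the heat at 30 °C whereas the growth protocol gives 32 °C over 5 days. Per the study's methods the HS pigs were killed after the TN pigs and pigs of a breed came in blocks of littermates from a few pens, so heat and the day of slaughter, with some added age, cannot be told apart, and pigs of a breed were related in ways the labels do not give. Values are log2 median spot signals, quantile normalized between arrays, a scale on which 1 unit is a 2-fold difference.

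KIF1A encodes a motor of the kinesin-3 family, which moves along microtubules and carries synaptic vesicle precursors and dense-core vesicles in neurons. TMEM52B encodes a membrane protein with a single span, about which little is known. S100A2 encodes a small calcium-binding protein with EF-hands, best known from the basal layer of stratified epithelia and as a target of the p53 family.

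The probes were 60 bases long and read different kinds of sequence, and 30 bases of each are shown because the level of a gene rests here on 1 stretch of its transcript. Capitals mark AATAAA, the canonical polyadenylation signal, where a probe holds it.
KIF1A: gtccggttaagaAATAAAcatggctcttta
TMEM52B: gcatcacctgtcctgttcttggagcactaa
S100A2 probe 1: ttttttagttttatattcAATAAActtttt
S100A2 probe 2: ttttttagttttatattcataaactttttt
S100A2 probe 3: ggcacactgctaaaattattaaaagacatg

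The KIF1A probe held AATAAA at base 26 and ended in 6 A, and S100A2 probe 1 held it at base 49. The hexamer occurred in 10.3% of all 60-base probes of the array, against 4.32% on the opposite strand, and 2.42% of the probes ended in 6 or more A. The match describes the letters of the probe only. KIF1A was named by the symbol and description in the array files, which give no transcript accession for that probe, so its assignment to the gene rests on the array's annotation. S100A2 was matched through a transcript accession and TMEM52B through a gene number. S100A2 probes 1 and 2 shared 30 of their 41 words of 20 bases and are near copies of each other, whereas no other probe of the array shared a word of 20 bases with any of the 5 probes.

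On Sscrofa11.1, KIF1A lies on chromosome 15 from 139610624 to 139694841, TMEM52B on chromosome 5 from 61779813 to 61788625, and S100A2 on chromosome 4 from 96073496 to 96076825. The stretches above were not placed on the genome, since no genome sequence was used here.

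KIF1A was present at 2 distinct levels rather than along a range. In 13 pigs its log2 signal lay between 5.52 and 6.15, in 22 pigs between 9.62 and 11.08, and 1 pig, LW TN replicate 3, lay between the clusters at 8.25. The mean of the high pigs exceeded that of the low pigs by 4.51 on the log2 scale, a 22.8-fold difference in signal. The scanner's own signal showed the same gap, with 42.5 to 72.0 intensity units in the low pigs and 684 to 2574 in the high pigs. The low pigs were still flagged as well above background, as KIF1A was on 36 of 36 arrays. Low and high pigs occurred together on each of the 5 slides.

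The KIF1A level of a breed was therefore mostly a matter of how many of its pigs were high. Of the 12 LW pigs, 9 were high, 2 were low and 1 was in the middle. Of the 12 CR pigs, 3 were high and 9 were low. Of the 12 F1 pigs, 10 were high and 2 were low. High pigs of the 3 breeds overlapped, with 9.95 to 11.08 in LW, 9.97 to 11.03 in CR and 9.62 to 10.67 in F1.

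**Figure D1:**
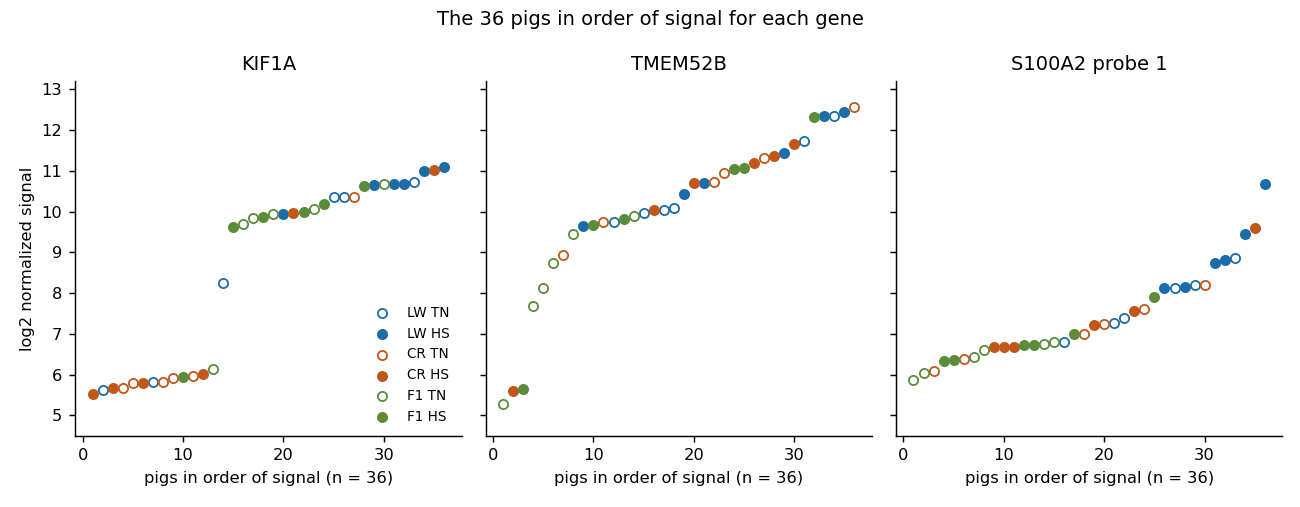
The 36 pigs in order of log2 normalized signal (y axis) for KIF1A, TMEM52B and S100A2 probe 1, with rank on the x axis, breed by colour, open circles for TN and filled circles for HS. KIF1A steps from 6.15 to 8.25 and then to 9.62, TMEM52B has 3 pigs at 5.27 to 5.65 below the next at 7.68, and S100A2 runs without such a step from 5.88 up to 9.60, with 1 pig at 10.67.

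By group, the 6 LW TN pigs read 5.81, 5.62, 8.25, 10.35, 10.35 and 10.72 for KIF1A, with a mean of 8.52 ± 2.34 (SD, n = 6). The 6 LW HS pigs read 10.65, 10.99, 11.08, 10.67, 9.95 and 10.68, with a mean of 10.67 ± 0.400 (SD, n = 6), so LW HS was the only group in which every pig was high. In CR TN the lowest value was 5.68, the median 5.88 and the highest 10.36, and in CR HS they were 5.52, 5.91 and 11.03. In F1 TN they were 6.15, 9.89 and 10.67, and in F1 HS 5.94, 9.93 and 10.62. The CR pigs that read high were TN replicate 4, HS replicate 5 and HS replicate 6, and the F1 pigs that read low were TN replicate 5 and HS replicate 5.

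In the order of breed means, LW (9.59 ± 1.96, SD, n = 12) and F1 (9.38 ± 1.59) came first and did not differ beyond their spread, and CR (6.96 ± 2.12) came last. The fitted difference of CR from LW was -2.63 (SE 0.719), that of F1 from LW -0.21 (SE 0.719), and that of F1 from CR 2.42 (SE 0.719). F1 lay 1.1 (SE 0.623) above the mean of both parent breeds, with a 95% interval from -0.16 to 2.37. High in Large White thus described KIF1A against CR alone. These contrasts are among those that chose the genes, and over all 44796 probes 26.5% passed a limma adjusted p of 0.05 for CR against LW (13.6% higher and 12.9% lower), 18.4% for F1 against LW (9.13% higher and 9.23% lower) and 1.5% for F1 against CR.

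TMEM52B had a similar median in LW (10.57) and CR (10.84) and a lower one in F1 (9.56). In CR the mean was lowered by 1 pig. The 12 LW pigs lay between 9.64 and 12.43, with a mean of 10.91 ± 1.09 (SD, n = 12). Among the 12 CR pigs 1 read 5.61, HS replicate 1, and the others reached from 8.93 to 12.57, which gave a mean of 10.40 ± 1.78. The 12 F1 pigs spread from 5.27 to 12.33 around a mean of 9.06 ± 2.12. The 3 pigs with the lowest values were CR HS replicate 1 at 5.61, F1 TN replicate 5 at 5.27 and F1 HS replicate 3 at 5.65, and F1 TN replicate 5 was the single array on which the probe was not well above background.

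The distance between F1 and LW was larger in the TN pigs, -2.47 (SE 0.921), than in the HS pigs, -1.23 (SE 0.921), a contrast that was not tested beyond the interaction given with the heat results. The 6 F1 TN pigs read 8.74, 7.68, 8.12, 9.88, 5.27 and 9.45, a mean of 8.19 ± 1.65 (SD, n = 6), while the 6 LW TN pigs read 9.74, 12.35, 11.74, 10.08, 10.04 and 9.96, a mean of 10.65 ± 1.1. These groups overlapped only at 9.74 to 9.88. The 6 F1 HS pigs read 11.04, 11.06, 5.65, 12.33, 9.81 and 9.67, a mean of 9.93 ± 2.31, and overlapped with the LW HS pigs, which lay between 9.64 and 12.43. CR TN had a mean of 10.71 ± 1.26 and CR HS of 10.09 ± 2.27.

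The breed order for TMEM52B was LW, CR and F1, of which LW and CR did not differ beyond their spread. CR differed from LW by -0.51 (SE 0.663), F1 from LW by -1.85 (SE 0.663), and F1 from CR by -1.34 (SE 0.663), whose 95% interval ran from -2.68 to 0.00. Without CR HS replicate 1 the difference of CR from LW was -0.03. Against the mean of both parent breeds F1 differed by -1.6 (SE 0.574). High in Large White thus described TMEM52B against F1.

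S100A2 was the gene for which LW stood above both other breeds. For probe 1 the 12 LW pigs lay between 6.81 and 10.67 with a median of 8.18, the 12 CR pigs between 6.08 and 9.60 with a median of 7.11, and the 12 F1 pigs between 5.88 and 7.90 with a median of 6.67. The mean of LW was 8.38 ± 1.04, that of CR 7.24 ± 0.946 and that of F1 6.63 ± 0.515 (SD, n = 12 each). CR was lower than LW by a fitted -1.14 (SE 0.312), F1 by -1.75 (SE 0.312), a 3.37-fold difference, and F1 differed from CR by -0.61 (SE 0.312), with a 95% interval from -1.25 to 0.02. F1 also lay below the mean of LW and CR, with a difference of -1.18 (SE 0.270).

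Within a temperature, LW and F1 pigs did not overlap for S100A2 probe 1, narrowly so at thermoneutrality. The gene was chosen by its breed differences, and the share of all probes without overlap was not counted, so this only describes the values. The 6 LW TN pigs read 7.38, 8.2, 6.81, 8.85, 8.12 and 7.27, and the 6 F1 TN pigs 6.03, 6.61, 6.76, 6.80, 6.43 and 5.88. The 6 LW HS pigs read 9.46, 8.12, 8.73, 8.81, 10.67 and 8.15, and the 6 F1 HS pigs 6.99, 7.90, 6.72, 6.73, 6.34 and 6.37. CR pigs overlapped with both, and CR HS replicate 6 at 9.60 stood apart from the other 5 CR HS pigs, which lay at 6.67 to 7.55.

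Probe 2 of S100A2 gave nearly the same picture, with a correlation of 0.991 to probe 1 over the 36 arrays, and is no independent measurement. LW had a mean of 8.2 ± 1.03, CR of 7.07 ± 0.990 and F1 of 6.49 ± 0.514 (SD, n = 12 each), and its differences from LW were -1.13 (SE 0.314) for CR and -1.71 (SE 0.314) for F1. Probe 3, which shares no sequence word with the others, read between 4.79 and 5.53 and was well above background on 1 of 36 arrays. That array was CR HS replicate 6, which also had the highest CR value on probes 1 and 2.

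**Figure D2:**
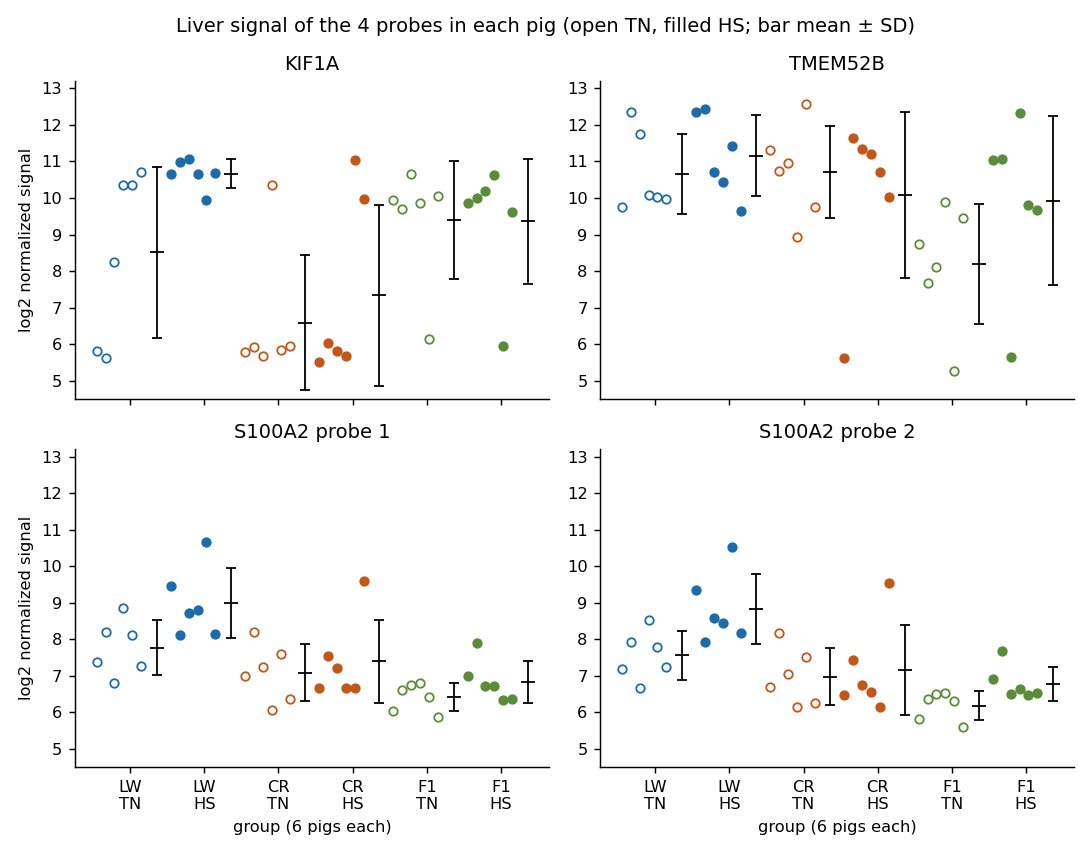
Log2 normalized signal (y axis) of the 4 detected probes in each pig by group (x axis, 6 pigs each), with open circles for TN, filled circles for HS, and the mean ± SD beside each group. The 2 levels of KIF1A, the 3 low TMEM52B pigs and the lower, narrow F1 groups of S100A2 can be seen pig by pig.

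The pigs of a group differed from each other far more for these genes than for most. The SD within groups was 1.86 for KIF1A, 1.69 for TMEM52B, 0.803 for S100A2 probe 1 and 0.801 for probe 2, on the log2 scale, against a median of 0.190 over the 44796 probes. A larger SD was found for 19 probes in the case of KIF1A, 30 for TMEM52B and 362 for S100A2 probe 1.

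**Figure D3:**
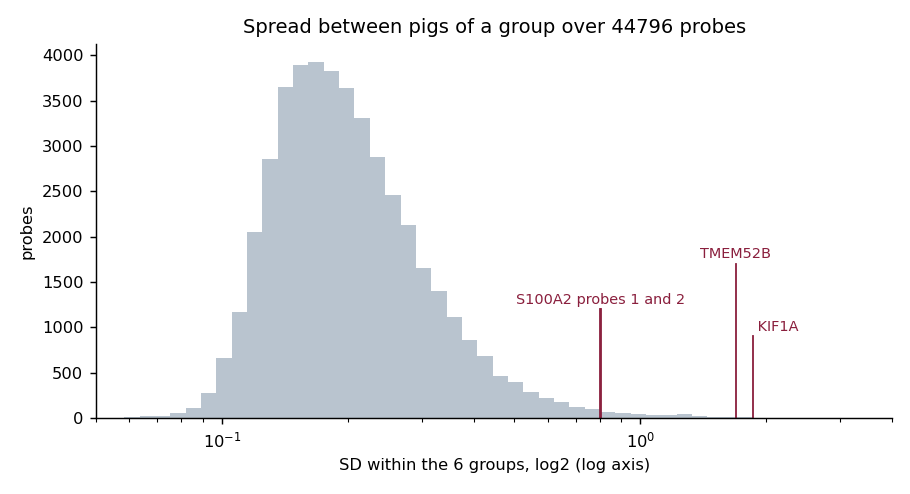
Histogram of the SD within the 6 groups (x axis, log2 units, log scale) over the 44796 probes, with the number of probes on the y axis and a line for each of the 4 probes. KIF1A at 1.86 and TMEM52B at 1.69 lie in the far right tail and the S100A2 probes at 0.803 and 0.801 at its start.

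The effect of heat was the contrast not used to choose the genes, and none of the 4 probes passed it. In the additive limma model of breed and temperature, with Benjamini-Hochberg adjustment over all 44796 probes, 384 probes (0.857%) passed an adjusted p of 0.05 for HS against TN, 0.435% higher and 0.422% lower in HS. For KIF1A the 18 HS pigs had a mean of 9.13 ± 2.17 and the 18 TN pigs of 8.17 ± 2.20 (SD, n = 18 each), a difference of 0.96 (SE 0.587, limma adjusted p = 0.521), and 13 of 18 HS pigs were above the TN mean of their breed. For TMEM52B the means were 10.39 ± 1.94 in HS and 9.85 ± 1.76 in TN, a difference of 0.54 (SE 0.541, limma adjusted p = 0.754), with 12 of 18 HS pigs above their TN mean.

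S100A2 came nearest to the threshold. Probe 1 had a mean of 7.74 ± 1.28 in HS and 7.09 ± 0.845 in TN, a difference of 0.65 (SE 0.255, limma adjusted p = 0.225), with 13 of 18 HS pigs above the TN mean of their breed. Probe 2 differed by 0.69 (SE 0.256, limma adjusted p = 0.196), with 14 of 18. The 95% intervals were 0.13 to 1.17 and 0.17 to 1.21 before any adjustment.

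For all 3 genes LW pigs had higher means under heat. Within LW, KIF1A differed between HS and TN by 2.15 (SE 1.01, limma adjusted p = 0.953), TMEM52B by 0.51 (SE 0.921, limma adjusted p = 0.989) and S100A2 probe 1 by 1.22 (SE 0.438, limma adjusted p = 0.953), with 6 of 6 LW HS pigs above the LW TN mean for KIF1A and S100A2. Within CR the same differences were 0.75 (SE 1.01), -0.61 (SE 0.921) and 0.31 (SE 0.438), and within F1 -0.02 (SE 1.01), 1.74 (SE 0.921) and 0.42 (SE 0.438). No within-breed value passed its adjustment, and over all probes 0 passed within LW, 0 within CR and 4 (0.00893%) within F1. The interaction of breed and temperature, tested with a moderated F test in limma, had an adjusted p of 0.995 for each of the 4 probes, with unadjusted limma p values of 0.316 for KIF1A, 0.21 for TMEM52B, 0.291 for S100A2 probe 1 and 0.212 for probe 2, and no probe of the array passed it.

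**Figure D4:**
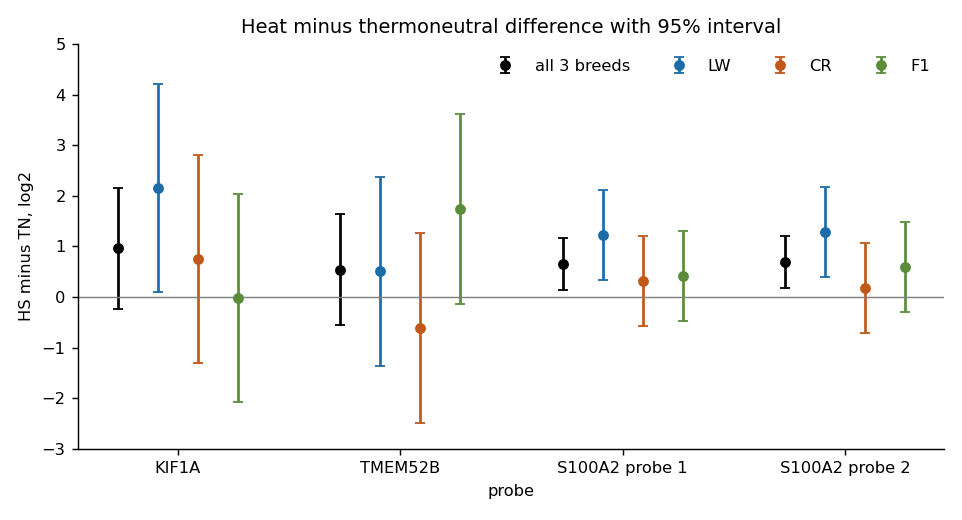
Difference between HS and TN pigs (y axis, log2) for each of the 4 probes (x axis), over all 3 breeds in black and within LW, CR and F1 in colour, with unadjusted 95% intervals from the limma fits. The intervals of the S100A2 probes over all breeds, 0.13 to 1.17 and 0.17 to 1.21, lie above 0, as do the LW intervals of KIF1A and S100A2, and none passed the adjustment over all probes.

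No relation between TMEM52B and S100A2 from pig to pig passed within a breed. Over the 12 pigs of a breed, Pearson's r between TMEM52B and S100A2 probe 1 was 0.23 for LW (permutation p = 0.484), 0.26 for CR (permutation p = 0.361) and 0.30 for F1 (permutation p = 0.344). Spearman's rho was 0.22 (permutation p = 0.499), 0.54 (permutation p = 0.0742) and 0.43 (permutation p = 0.162). After Benjamini-Hochberg adjustment over the 9 relations computed, the smallest permutation p was 0.721 for r and 0.668 for rho. Without the 2 pigs farthest from the TMEM52B median, r became 0.38 for LW, -0.11 for CR and 0.42 for F1. The other 6 relations were those of KIF1A, whose values fell into separate clusters, so no r within breeds is given for them.

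The genes whose pattern over the 36 pigs was most like each of the 3 were sought among 10506 named genes, each by its brightest probe, on values centred within the 6 groups. For KIF1A they were ZNRF2, a ubiquitin ligase (r = 0.73), SERPINI1, the protease inhibitor neuroserpin (0.65), FKBPL (0.60), BCL7B (0.59) and OOEP (0.58). For TMEM52B they were APITD1, a centromere protein gene (r = 0.72), NUDT1, which clears oxidised nucleotides (0.65), POLR2F, a subunit shared by RNA polymerases (0.64), ZNF511 (0.60) and CENPM, another centromere protein gene (0.59). For S100A2 they were COL5A1, a chain of type V collagen (r = 0.77), SLC16A13, of the monocarboxylate transporter family (0.71), SCG3, a secretogranin (0.70), FKBP10, an isomerase that helps collagen to fold (0.69), and NECAB3 (0.69). These are the highest of many correlations over 36 arrays, given with no p, and no named gene was above 0.8 for any of the 3. For KIF1A the correlation runs across its clusters of low and high pigs.

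All 15 had a smaller spread than the gene they resembled. Their SD within groups was 0.145 for OOEP to 0.474 for SLC16A13, against 0.803 to 1.86 for the 3 genes themselves. Of the 5 nearest to KIF1A, ZNRF2 was lower in CR than in LW (-0.50, limma adjusted p = 3.88e-05). Of the 5 nearest to TMEM52B, NUDT1 (0.20, limma adjusted p = 0.0171), ZNF511 (0.20, limma adjusted p = 0.0233) and CENPM (0.41, limma adjusted p = 0.0196) were higher in CR than in LW. Of the 5 nearest to S100A2, SCG3 was lower than in LW in both CR (-0.32, limma adjusted p = 0.0236) and F1 (-0.51, limma adjusted p = 0.00177). Over all named genes 25.9% passed for CR against LW and 17.3% for F1 against LW, so these calls do not set the 15 genes apart.

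The other kinesins that differed between breeds did so by 0.39 or less, in both directions. Of 27 listed kinesin genes 17 had a detected probe, and 4 passed for CR against LW and 4 for F1 against LW, which is 23.5% in both cases. Over all named genes the shares were 25.9% (11.6% higher and 14.3% lower) and 17.3% (7.21% higher and 10.1% lower). KLC1, a kinesin light chain, was higher than in LW by 0.31 in CR and 0.27 in F1 (limma adjusted p = 0.00114 and 0.00718). KIF13B, a kinesin-3 motor like KIF1A, was higher by 0.20 and 0.23 (limma adjusted p = 0.0426 and 0.0311). KIF2A, which takes microtubules apart, was lower, with -0.32 and -0.28 (limma adjusted p = 0.00462 and 0.0189). KIF21A passed in CR alone (-0.39, limma adjusted p = 0.0401, but -0.19 and not passing with the mean of its probes) and KIFAP3, the adaptor of kinesin-2, in F1 alone (-0.20, limma adjusted p = 0.0434). No listed kinesin passed for F1 against CR.

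Among genes for KIF1A cargo and adaptors, 13 of 19 were measured and 2 passed for either breed. RAB3D, a Rab of secretory vesicles, was lower in CR (-0.27, limma adjusted p = 0.00557) and F1 (-0.22, limma adjusted p = 0.0359). PPFIA1, a liprin scaffold, was higher in CR (0.32, limma adjusted p = 0.0211). The share was 15.4% for each contrast, where all named genes gave 25.9% and 17.3%. RAB3D did not pass in F1 when the authors' log2 table was used (-0.17).

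Of the S100 family, 14 of 19 listed genes were measured beside S100A2, and every one that passed was lower than in LW. There were 5 in CR (35.7%) and 4 in F1 (28.6%). Over all named genes 25.9% and 17.3% passed, 14.3% and 10.1% as lower. With 1 slide left out the S100 counts ran from 3 to 5 in CR and from 1 to 5 in F1. The median difference over the 14 was -0.20 in CR and -0.12 in F1, against -0.01 over all named genes. The neutrophil and monocyte genes S100A12 (-1.13 in CR and -0.91 in F1, limma adjusted p = 0.000155 and 0.00335), S100A8 (-0.84 and -0.76, limma adjusted p = 0.00659 and 0.0196) and S100A9 (-0.64 and -0.53, limma adjusted p = 0.000489 and 0.00546) had the largest differences. S100A16 was lower by a fitted -0.59 in CR and -0.28 in F1 (limma adjusted p = 3.51e-05 and 0.0406), and S100A1 was lower in CR (-0.29, limma adjusted p = 0.0464).

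Of the p53-family regulators and chaperone partners of S100A2, 10 of 12 were measured. Against LW 2 passed for CR and 2 for F1, or 20% each, where 25.9% and 17.3% of all named genes did. CDKN1A, the p53 target that arrests the cell cycle, was lower in CR (-0.84, limma adjusted p = 0.000884), and the cochaperone FKBP4 was higher in CR (0.41, limma adjusted p = 0.00019) and F1 (0.29, limma adjusted p = 0.00853). With the mean of all its detected probes FKBP4 passed in neither breed, at 0.10 in CR and 0.07 in F1. PPP5C, a phosphatase bound to heat shock protein 90, was lower in F1 (-0.24, limma adjusted p = 0.0384).

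A list of TMEM52, epithelial junction and EGFR genes had 14 of 15 measured. In CR 5 were called (35.7%), all higher than in LW, and in F1 4 (28.6%), 2 higher and 2 lower. The shares over all named genes were 25.9% (11.6% higher) and 17.3%. The tight junction scaffold TJP1 was higher by 0.48 in CR and 0.27 in F1 (limma adjusted p = 0.000214 and 0.0331), and the receptor EGFR by 0.44 in both (limma adjusted p = 0.00476 and 0.00795). JUP, a plakoglobin of junctions (0.42, limma adjusted p = 0.0044), and TGFA, a ligand of EGFR (0.38, limma adjusted p = 0.00138), were higher in CR. CDH1, E-cadherin, was lower in F1 (-0.34, limma adjusted p = 0.0193), but did not pass with the mean of its probes (-0.16).

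No gene of these 5 lists passed for HS against TN by limma, where 0.952% of all named genes did. An unadjusted p under 0.05 was found for 8 of 68, and for 1451 of all 10506 named genes, a larger share. None passed for F1 against CR, where the share over all named genes was 1.79%.

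The genes next to each of the 3 on the chromosome were examined as well, 10 on each side where the chromosome held that many with a detected probe. For KIF1A 18 neighbours were measured, and 5 passed for CR against LW (27.8%) and 3 for F1 against LW (16.7%), near the 25.9% and 17.3% of all named genes. All of them were higher than in LW. They were PER2, a circadian clock gene (0.61 in CR and 0.39 in F1, limma adjusted p = 0.000405 and 0.0258), ILKAP, a phosphatase (0.39 and 0.32, limma adjusted p = 0.000812 and 0.00883), STK25, a kinase (0.31 and 0.18, limma adjusted p = 0.000269 and 0.0308), FARP2 (0.34 in CR, limma adjusted p = 0.0298) and ASB1 (0.31 in CR, limma adjusted p = 0.00587). The nearest measured gene, CAPN10, lay 41.9 kb away and did not pass.

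TMEM52B lies beside the cluster of lectin-like receptors of natural killer cells. Of its 20 measured neighbours 11 passed for CR against LW (55.0%) and 2 for F1 against LW (10%). The shares over all named genes were 25.9% and 17.3%. Of the 11, 10 were lower in CR and 1, YBX3, was higher (0.18, limma adjusted p = 0.0204). With 1 slide left out the counts ran from 3 to 11 for CR and from 0 to 4 for F1. The activating receptor gene KLRK1 was lower by a fitted -0.87 in CR and -0.59 in F1 (limma adjusted p = 5.29e-05 and 0.00587), and CLEC1A by -0.51 and -0.38 (limma adjusted p = 0.00077 and 0.0131). CLEC2D (-0.67, limma adjusted p = 0.0018), an uncharacterised locus, LOC100520491 (-0.63, limma adjusted p = 0.00424), and MANSC1 (-0.48, limma adjusted p = 0.0153) were lower in CR. For F1 against LW the count rose from 2 to 9 of 20 without the 5 pigs that lay away from their breed, which are named with the array facts. Calls over all 44796 probes rose as well, from 8223 to 14488, so the rise was not particular to these neighbours. CLEC2D and TMEM52B had a correlation of 0.57 over the 36 arrays on values centred within groups, the highest of the 20 neighbours.

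S100A2 lies within the S100 cluster, with S100A4 at 11.3 kb and S100A6 at 21.4 kb as the nearest measured genes. Over all named genes 25.9% passed for CR against LW and 17.3% for F1 against LW, 14.3% and 10.1% as lower. Among the 20 neighbours of S100A2 7 passed for CR (35%) and 4 for F1 (20%), all lower than in LW. Of these 7, 5 are the S100 genes named above, and the other two were SLC27A3, of the fatty acid transporter family (-0.26, limma adjusted p = 0.0165), and SNAPIN, of the vesicle fusion machinery (-0.17, limma adjusted p = 0.0281). S100A4 and S100A6, both closer to S100A2 than those, did not pass, with -0.10 and 0.12 in CR. S100A6 had the highest correlation to S100A2 among the neighbours (0.54).

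**Figure D5:**
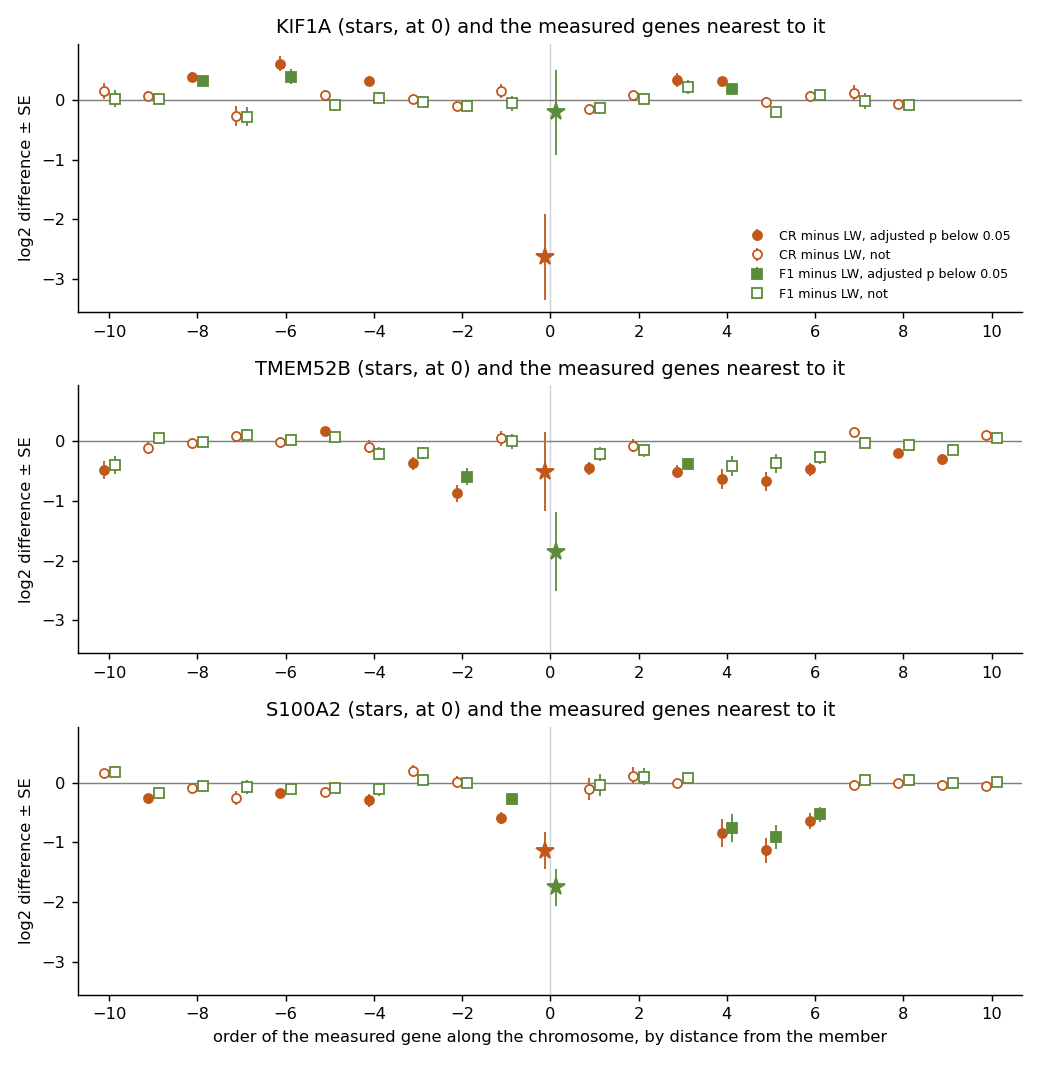
Fitted log2 difference from LW ± SE (y axis) of CR (circles) and F1 (squares) for the measured genes around KIF1A, TMEM52B and S100A2, in order of distance from each gene along the chromosome (x axis, negative towards lower coordinates). Filled symbols passed a limma adjusted p of 0.05, and stars at 0 show the gene itself, with no test. The stars lie at -2.63 and -0.21 for KIF1A, -0.51 and -1.85 for TMEM52B and -1.14 and -1.75 for S100A2, while the largest difference among the neighbours is -1.13, for S100A12.

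Cell type markers were read beside these levels. The labelled tissue was borne out by ALB, APOA1, TTR and TF, which had mean log2 signals of 18.77, 18.64, 18.11 and 18.28. Of the 10 listed hepatocyte genes 8 were measured, and their summed linear signal spanned 1810000 to 1990000 in LW, 1740000 to 1910000 in CR and 1790000 to 1910000 in F1. In a bulk sample fewer cells of a type and less RNA per cell cannot be told apart.

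The epithelium and neurons in which S100A2 and KIF1A are best known were read by their defining markers. Those that had a probe were mostly dim or not detected, and others had no probe. For basal and stratified epithelium 3 of 10 were measured, KRT5, DSG3 and SFN, with means of 5.36, 6.67 and 6.02, and their summed signal lay at 191 to 231 in LW pigs, 187 to 231 in CR pigs and 200 to 226 in F1 pigs. None of the 3 passed in any contrast, and KRT17 and LAMB3 were not detected. KRT14, KRT15, TP63 and DSC3 had no probe named for them, so their level in these livers is unknown. For neurons and neuroendocrine cells 8 of 14 were measured, with a summed signal of 43900 to 55300 in LW, 44600 to 52400 in CR and 39800 to 54100 in F1. Most of that sum was CHGA, with a mean of 15.57, while SNAP25, SYT1, GAP43 and ELAVL4 were not detected. One gene of the list passed, UCHL1, which was higher in CR (0.75, limma adjusted p = 0.0303), but did not pass with the mean of its probes (0.49).

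Those markers of macrophages, lymphocytes and endothelial cells that passed were lower in CR and F1 than in LW, the direction of S100A2, while others of the same lists did not pass. Of 5 measured macrophage markers 3 passed in both, namely CD163 (-1.16 in CR and -0.74 in F1, limma adjusted p = 1.08e-07 and 0.000323), VSIG4 (-0.83 and -0.66, limma adjusted p = 3.99e-06 and 0.000355) and CSF1R (-0.56 and -0.58, limma adjusted p = 0.000299 and 0.000918). The summed macrophage signal ran from 29400 to 39900 over LW pigs, from 18700 to 31300 over CR pigs and from 22900 to 33300 over F1 pigs. Of 8 lymphocyte markers 4 passed in CR and 3 in F1, among them NKG7 (-0.65 and -0.31, limma adjusted p = 3.09e-05 and 0.0339) and CD3D (-0.61 and -0.45, limma adjusted p = 5.76e-05 and 0.00331), and their summed signal had medians of 1620 in LW and 1410 in both others, and the highest pigs reached 1830 in LW, 1580 in CR and 1740 in F1. CD79B, a B cell gene, was at 0.13 in CR and 0.09 in F1 and did not pass. Of 7 endothelial and stellate markers 2 passed in both (28.6%, against 25.9% and 17.3% of all named genes), LYVE1 (-0.61 and -0.38, limma adjusted p = 0.000141 and 0.0168) and PECAM1 (-0.41 and -0.35, limma adjusted p = 0.00172 and 0.0117), and VWF was at 0.16 and 0.06 and did not pass. With the mean of all detected probes of a gene, PECAM1 passed in neither breed (-0.12 and -0.19) and LYVE1 not in F1 (-0.16). Their part in the levels of S100A2, of S100A8, S100A9 and S100A12, or of the receptor genes beside TMEM52B was not tested.

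Of 9 measured bile duct markers 2 passed in CR (22.2%) and none in F1 against LW, where 25.9% and 17.3% of all named genes did. The 2 included KRT7, which was higher in CR (0.74, limma adjusted p = 0.000338). None of 4 Schwann cell and 3 pancreas markers passed in any contrast, and no marker of any list passed for HS against TN.

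Between 39644 and 44025 of 60306 non-control spots were well above background per array, no spot was saturated, and the number of arrays limits the precision. On the first principal component, which held 18.6% of the variance, LW TN replicates 1 and 6 lay at -4.83 and -3.04 against -44.2 to -24.8 for the other LW pigs, and F1 TN replicate 3 and F1 HS replicates 1 and 2 lay at -18.1, -17.0 and -21.3 while the other F1 pigs lay at -1.31 to 36.9. Without those 5 pigs, KIF1A differed by -2.80 in CR and -0.60 in F1 from LW, TMEM52B by -0.71 and -2.38, and S100A2 probe 1 by -1.30 and -2.08. The pigs left out were picked for lying away from their breed in these same arrays. Larger breed differences without them are therefore no independent check. Calls over all probes also rose, from 11855 to 14778 for CR and from 8223 to 14488 for F1. The TMEM52B difference between HS and TN was 0.13 without those 5 pigs (limma adjusted p = 0.953).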

How the data were processed

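Per the file headers, the authors deposited for each pig the linear intensity of every spot, read by Agilent Feature Extraction 10.10.1.1 from a 1-colour porcine array and not yet normalized across arrays. A second deposited table holds log2 values of 42051 probes that the authors had quantile normalized. Its probe means lie only between 6.4314 and 9.2147, whereas ALB has a mean of 18.77 in the values used here. Its column medians lie at 7.6564 to 7.6585, and it served as an alternative. With each probe centred, its values correlated with those used here at 0.79 or more on every array, with slopes of 0.71 to 1.15.

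The median signal was log2 transformed and quantile normalized over 60306 non-control spots with limma 3.58.1 in R 4.3.3. The methods name the steps in the reverse order. Values of 107 non-uniform spots were left out, and a probe spotted 2 times was averaged. The filter of 6 arrays well above background kept 44796 probes (74.3%), of which 22328 carried a gene symbol. A gene was read by its kept probe with the highest mean. Breed and temperature were fitted as fixed effects over 36 arrays, and a means model of the 6 groups gave the within-breed and interaction tests, all with Benjamini-Hochberg adjustment over the kept probes at 0.05. The random effects in the study's model (pen, slaughter day, father and mother) could not be fitted from the labels. The tests treated pigs as independent, although the study's methods describe blocks of littermates within each breed. The p-values, above all those of the breed contrasts, may therefore be too small. Permutation tests used 100000 resamples. The arrays lay on 5 slides of 4 or 8 arrays with equal numbers of TN and HS pigs, each scanned once. Replicate numbers follow accession order and only name a pig.

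The members, the gene lists and the marker lists were chosen with earlier results of these data known. The genes named are the 3 members, the 5 genes most correlated with each, up to 5 called genes per list or neighbourhood and up to 3 called markers per list, by size. CHGA, ALB and other genes given for their level alone, the neighbours CAPN10, S100A4, S100A6, YBX3, SLC27A3 and SNAPIN, and S100A7 and RAMP1 among the alternatives, were chosen after their values were seen. Some called genes of the lists are not reported here. The scripts were tested on simulated data. Alternatives covered the signal, background correction, normalization, filter, slide, array weights, spread estimate and single arrays or slides left out.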

Additional observations from a re-analysis of the deposited data

Results flagged for a closer look

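In each of the 24 combinations of a probe and a group of 6 pigs, the gap between the most extreme pig and its nearest neighbour was divided by the range of the group. It exceeded Dixon's critical value for 6 samples in 6, where chance gives 1 in 20, or 1.2, for normal values and independent groups. KIF1A fell into clusters and S100A2 probes 1 and 2 are near copies, so 6 cannot be read as an excess over 1.2. For KIF1A, CR TN replicate 4 was far above the other 5 pigs of its group (0.939), whereas replicate 5 of F1 TN (0.785) and likewise replicate 5 of F1 HS (0.785) were far below theirs. For TMEM52B, CR HS replicate 1 was far below the rest of its group (0.734). For S100A2, CR HS replicate 6 stood out above on probe 1 (0.698) and F1 HS replicate 2 above on probe 2 (0.639). F1 TN replicate 5 was low for both KIF1A, at 6.15, and TMEM52B, at 5.27. No cause was tested for any of them.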

How the results depend on the processing

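No paired analysis was possible because replicate numbers follow accession order and pair no pigs across groups. No member probe passed for HS against TN or for the interaction under any alternative run. No breed difference of a member moved by more than its SD within groups. That is a wide bound for KIF1A (1.86) and TMEM52B (1.69), so it says little about stability. F1 against LW for KIF1A (-0.95 to 0.25) and CR against LW for TMEM52B (-0.94 to 0.08) ran through 0. The HS difference of KIF1A turned to -0.02 within F1 and that of TMEM52B to -0.61 within CR, and r between TMEM52B and S100A2 in F1 turned to -0.02 without the 5 pigs away from their breed. Leaving out 1 pig at a time gave HS differences of 0.74 to 1.20 for KIF1A, 0.32 to 0.86 for TMEM52B, 0.52 to 0.73 for S100A2 probe 1 and 0.55 to 0.78 for probe 2. It gave breed differences from LW of -2.99 to -2.45 (CR) and -0.54 to 0.16 (F1) for KIF1A, -0.74 to -0.03 and -2.13 to -1.51 for TMEM52B, and -1.33 to -0.96 and -1.87 to -1.57 for S100A2 probe 1. For TMEM52B the filter at 36 arrays gave no value.

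The counts around the members depended more on the pigs used. Of the 5 gene lists 18 genes passed for CR and 16 for F1 against LW, and of the neighbours 23 and 9. Leaving out 1 pig gave 15 to 20, 10 to 20 (10 without F1 TN replicate 1), 21 to 24 and 7 to 14 (14 without LW TN replicate 1). Without slide 3, 10 and 3 list genes and 9 and 2 neighbours passed, where over all probes 5687 and 1584 passed against 11855 and 8223 with every slide. List genes called for F1 fell to 8 without slide 2, 8 without slide 4 and 10 without slide 5, and neighbours to 3 without slide 2. Without the 5 pigs 19 neighbours passed for F1, where over all probes 14488 passed against 8223 with every pig. For HS against TN the lists and the neighbours had 0 called genes, with unadjusted p under 0.05 for 8 of 68 and 11 of 58, against 1451 of 10506 named genes. Each had 1 called gene, S100A7, with the authors' log2 table, the filter at 18 arrays, slide as a block or the mean of a gene's probes (-0.21 to -0.23), and 0 to 1 with 1 pig left out, when S100A7, RAMP1 or CDKN1A passed. The cause was not tested. For F1 against LW, the calls of RAB3D, KIFAP3, PPP5C, STK25, CDH1 and FKBP4, among others, were lost under at least 2 alternatives each. With 1 of 5 slides left out, S100A8, S100A16 and TJP1 each lost their F1 call in 4 cases. With 1 of 36 pigs left out, the CR calls of S100A1, KIF21A and KIF13B were lost in 17, 15 and 13 cases. Other single calls were also lost in some settings.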
